A study of Arabidopsis thaliana with 24 samples.

Results

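Of 22746 probe sets on the array, 178 were at least 1.5 higher on the log2 scale in shoots without phosphate for 1 week than in shoots kept on phosphate, in wild type and in the pnp1-1 mutant alike. A probe set is a group of short array probes that reads 1 transcript, and its intensity is the brightness of those probes. The probe sets were chosen from the deposited intensities by taking log2, setting values under 4 to 4, averaging the 3 replicates of a group, and requiring a difference between medium without phosphate (-P) and medium with phosphate (+P) of at least 1.5 in each genotype. That requirement was met by 188 probe sets, 0.827% of the array, and 10 that the rule names were left out. The threshold was passed by 1.97% of all probe sets in wild type, whatever the mutant did, and by 1.13% in pnp1-1, whatever wild type did. Since the 1 week values chose the 178, the size of their 1 week response is given below as a description with no test.

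Arabidopsis thaliana seedlings were of 2 genotypes: WT (Columbia-0) and pnp1-1, a T-DNA insertion line (SALK_013306) in the same background, described by the submitters as null for PNP1, which encodes the polynucleotide phosphorylase of chloroplasts. All seedlings grew for 2 weeks on full MS medium with phosphate and 0.5% sucrose at 22 °C under a 16 h photoperiod, and were then rinsed and moved to fresh +P medium, or to -P medium in which K2SO4 replaced KH2PO4, for 3 h or 1 week. Each of the 8 groups of genotype, medium and time had 3 biological replicates of at least 4 pooled seedlings each, so there were 24 arrays. Roots were removed before RNA extraction, so that the RNA came from whole shoots of mixed cell types; fewer cells of a type and less RNA per cell cannot be told apart in such samples. The mutant was a single line. No probe set is listed for the PNP1 gene in the probe table used here, so its transcript was not analysed here.

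Plants short of phosphate are known to switch on a shared set of genes, largely through the PHR1 family of transcription factors, which SPX proteins hold back while phosphate is plentiful. The known targets include phosphate transporters, acid phosphatases that free phosphate from organic esters, and enzymes that replace membrane phospholipids by sugar lipids and sulfolipids. Starved leaves also tend to gather starch and anthocyanin pigments. Polynucleotide phosphorylase degrades RNA by adding phosphate to the bonds it cuts, so its reaction uses phosphate as a substrate.

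Gene names could be given to 71 of the 178 probe sets, which stood for 70 genes because AT3G44510, an alpha/beta-hydrolase family gene, had 2 of them. A further 2 probe sets matched several genes, and 105 are unnamed here; of the whole array, 13513 probe sets had 1 gene, 503 several and 8730 none. Among the 178, 8 carry a suffix of the array maker for probes shared by several transcripts. Intensities under 16, held by 40.3% to 41.5% of all probe sets on an array, have no dependable order in these background-corrected values. Every one of the 178 reached 16 on 3 or more arrays, but 49 had a mean under 16 on +P in both genotypes at 1 week, so the size of their rise depends on the background correction. The leaf gene RCA, which encodes the activase of Rubisco, differed between media at 1 week by -0.16 in WT and -0.21 in pnp1-1 on the log2 scale, and the root hair genes EXPA7 and EXPA18 had group means between 3.38 and 3.49 at that time. Of the 6 leaf markers 1 had a named probe set, of the 6 root hair markers 2, and of the 4 floral markers 0.

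Several arrays stood apart in the rising probe sets, and this bears on the results at 3 h and at 1 week. On replicate 2 of pnp1-1 on +P at 3 h, 28 of the 178 (15.7%) were at least 4-fold above both other arrays of that group with values under 16 set to 16, against 0.506% of all probe sets. Replicate 1 of WT on +P at 3 h held 10 (5.62%) in that position, against 0.343% of all, and no other array held more than 7. In the pnp1-1 group PRX52, a class III peroxidase, read 3.9, 302 and 4.1 on the 3 arrays on +P, and AT1G26380, a berberine bridge enzyme-like oxidoreductase, read 12.5, 406 and 8.5. The WT array was high in other genes, such as AT1G23140, a C2 domain protein, at 197, 24.4 and 25.2, and AT1G67600, of an acid phosphatase-like family, at 56.7, 24.9 and 14.2. At 1 week, 3 arrays (pnp1-1 +P replicate 2, WT -P replicate 1 and pnp1-1 -P replicate 1) had a raised lower quartile of all intensities, between 6.37 and 6.46 against 5.42 to 5.78 on the others. Without them 193 probe sets met the rule, of which 149 were among the 178. On WT +P at 1 week, replicate 1 held 7 of the 178 (3.93%) at least 4-fold above both other arrays, against 0.783% of all probe sets. Replicates 2 and 3 of that group held 0 of the 178 in that position, and 0% and 0.0044% of all. With replicates 2 and 3 averaged into 1 array, 178 probe sets met the rule, of which 172 were among those described here. Levels at 3 h are not set against levels at 1 week here, because the 2 times differ in scale and number format, so that time and batch cannot be told apart.

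At 1 week the median of these probe sets was below that of the array on WT +P and slightly above it on pnp1-1 +P. On -P it was well above it in both genotypes. The median log2 intensity of the 178 was 4.72 to 4.96 on the WT +P arrays and 8.11 to 8.64 on the WT -P arrays. In pnp1-1 it was 5.87 to 6.02 on +P and 8.61 to 8.88 on -P. The median of all probe sets stayed between 5.56 and 5.97 on these 12 arrays. The share of the 178 under an intensity of 16 was 36.0% to 39.9% on the WT +P arrays, 28.1% to 33.1% on the pnp1-1 +P arrays, and 0% to 5.06% on the -P arrays.

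**Figure D1:**
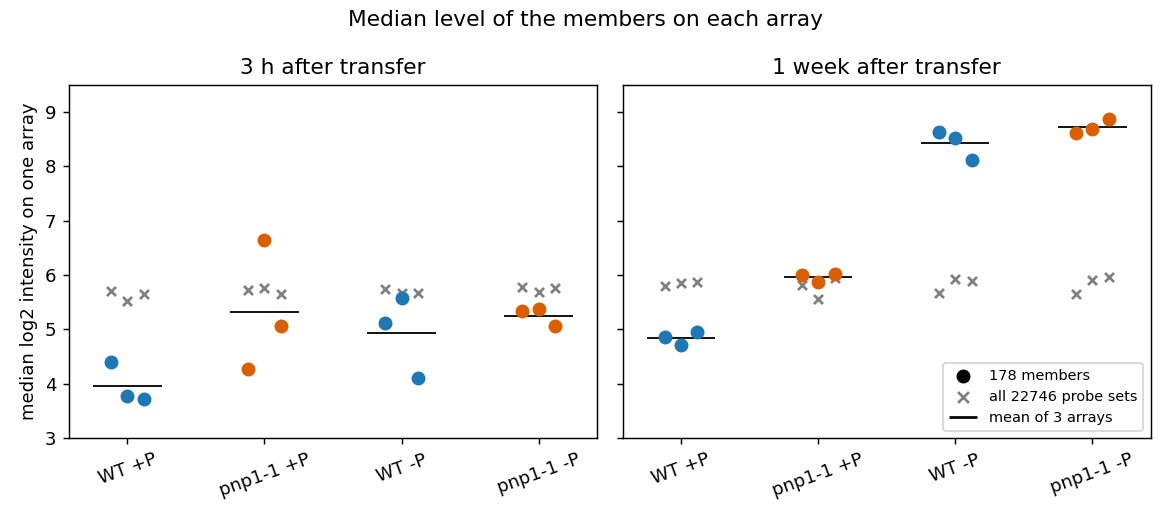
Median log2 intensity of the 178 rising probe sets on each array (circles, blue for WT and orange for pnp1-1), with the median of all 22746 probe sets (crosses) and the mean of the 3 arrays of a group (bars); the left panel shows 3 h and the right panel 1 week. At 1 week the -P arrays lie between 8.11 and 8.88 and the pnp1-1 +P arrays lie above the WT +P arrays; at 3 h replicate 2 of pnp1-1 on +P is the highest, at 6.65.

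The median rise was 2.74 on the log2 scale in WT, with a range of 1.5 to 8.08, and 2.33 in pnp1-1, with a range of 1.5 to 7.05. A 4-fold rise or more was seen for 147 probe sets in WT, for 116 in pnp1-1 and for 107 in both. The rise was larger in WT for 128 of the 178, by at least 1 on the log2 scale for 46, while it was larger in pnp1-1 by at least 1 for 10. All 3 -P arrays lay above all 3 +P arrays for 161 probe sets in WT, for 165 in pnp1-1 and for 155 in both, where 7.09%, 4.93% and 2.77% of the whole array did so; the rule used these arrays. At the threshold the members just inside were AT3G16330, with 1.504 in WT and 1.72 in pnp1-1, and the unnamed probe sets 248896_at (1.84 and 1.501) and 248485_at (2.08 and 1.504). Just outside lay 266743_at, at 2.96 in WT and 1.499 in pnp1-1, then 254741_s_at at 2.02 and 1.497 and 261448_at at 2.04 and 1.496.

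**Figure D2:**
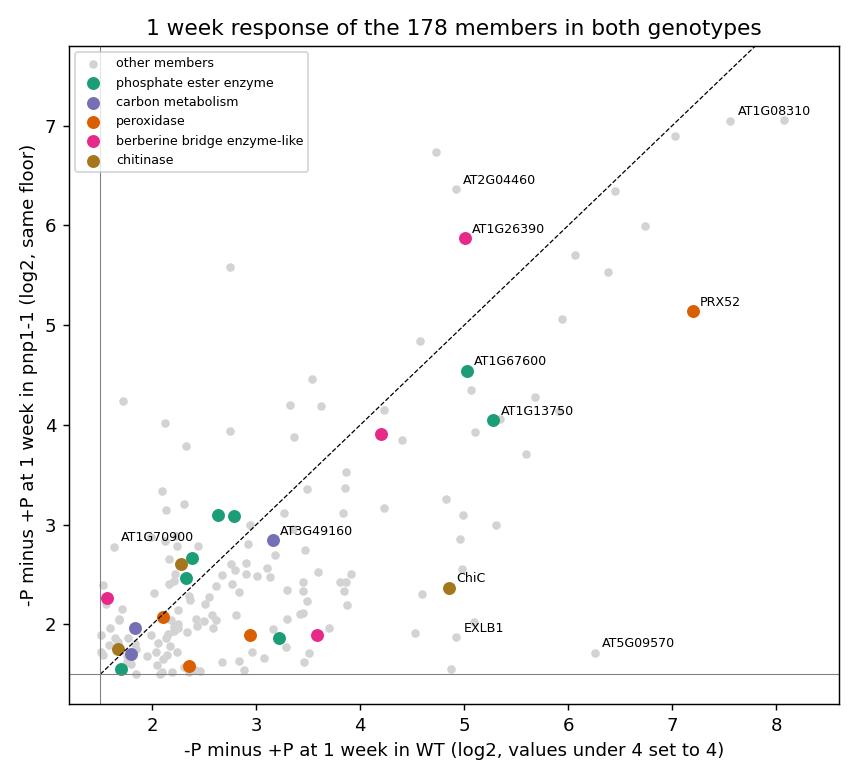
Difference between -P and +P at 1 week for each of the 178 probe sets, WT on the horizontal and pnp1-1 on the vertical axis (log2, values under 4 set to 4), with role groups in colour; grey lines mark the threshold of 1.5 and the dashed line equal responses. Of the points, 128 lie below the dashed line, and AT5G09570 (6.25 in WT, 1.72 in pnp1-1) and EXLB1 (4.92 and 1.87) lie far below it.

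The named probe set with the largest shared rise was AT1G08310, a gene of the alpha/beta-hydrolase superfamily. It read 7.57, 6.3 and 8.66 on the WT +P arrays and 1444, 1633 and 1176 on the WT -P arrays. In pnp1-1 the +P arrays read 12.9, 6.04 and 8.95 and the -P arrays 1328, 1152 and 1060.0. The groups were far apart in both genotypes, and the differences were 7.56 in WT and 7.05 in pnp1-1. The leading probe set of all, the unnamed 263391_at, rose by 8.08 in WT, from 5.22 to 5.34 on +P to 1325 to 1516 on -P, and by 7.05 in pnp1-1. Of the 25 largest shared rises 12 belonged to named genes, and the smaller of the 2 differences was at least 3.62 for all 25.

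Enzymes that act on phosphate esters, phosphatases and relatives of phosphoglycerate mutase among them, formed 1 of the role groups, with 8 named genes; the groups were put together after the values were seen. Their rise ranged from 1.70 to 5.28 in WT and from 1.56 to 4.54 in pnp1-1, and it was larger in WT for 4 of the 8. AT1G13750, which encodes the purple acid phosphatase PAP1, read 17.6, 17.9 and 54.6 on WT +P and 966, 1098 and 952 on WT -P. In pnp1-1 it read 62, 76.7 and 56.5 on +P and 1139.8, 800.1 and 1338 on -P. The -P levels overlapped between genotypes, while every pnp1-1 +P array lay above every WT +P array, and the rise was 5.28 in WT and 4.05 in pnp1-1.

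AT1G67600 belongs to the acid phosphatase or vanadium-dependent haloperoxidase family. It went from 8.8, 6.33 and 8.59 to 224, 308 and 238 in WT and from 8.89, 9.6 and 5.56 to 183, 196 and 167 in pnp1-1. Its +P levels were under 16 on all 6 arrays, so that its rises of 5.02 and 4.54 depend on the floor of the scale. SAL2, a homologue of the bisphosphate nucleotidase SAL1, read 9.66, 11.3 and 10 on WT +P and 55.2, 89.9 and 52.7 on WT -P. In pnp1-1 SAL2 read 10, 10.4 and 9.5 against 69.7, 69.4 and 129.8, a rise of 3.10 against 2.63 in WT.

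A pair of genes of the phosphoglycerate mutase family, AT1G22170 and AT2G17280, rose by similar amounts in both genotypes. AT2G17280 read 111, 121 and 137 on WT +P and 829, 635 and 498 on WT -P, a rise of 2.38. The pnp1-1 arrays read 69.6, 58.8 and 61.2 on +P and 519, 359 and 341 on -P, a rise of 2.66 from a lower start. AT1G22170 rose by 2.79 in WT and 3.08 in pnp1-1. The other genes of this group rose by 2.32 and 2.46 (AT2G38740, a haloacid dehalogenase-like hydrolase), 3.22 and 1.86 (AT4G23000, of the calcineurin-like phosphoesterase family) and 1.70 and 1.56 (VTC4, which makes free L-galactose from its phosphate on the way to vitamin C) in WT and pnp1-1. VTC4 varied within WT on +P, where its arrays read 1706, 351 and 443 against 1840.0, 1614 and 3084 on -P.

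Enzymes of carbon metabolism with a named probe set were AT3G49160, of the pyruvate kinase family, the sucrose phosphate synthase gene ATSPS4F, and APL3, the large subunit of the starch enzyme ADP-glucose pyrophosphorylase. AT3G49160 read 36, 10.4 and 11.4 on WT +P and 169, 75.5 and 238 on WT -P. It read 13.8, 14.4 and 18.3 on pnp1-1 +P and 73.7, 90.4 and 201 on pnp1-1 -P, so that the rise was 3.16 in WT and 2.84 in pnp1-1 and the groups did not overlap. APL3 overlapped between media in WT, with 232, 27.9 and 58.9 on +P and 261, 123 and 538 on -P, and rose by 1.83 there and by 1.96 in pnp1-1. DFR, the dihydroflavonol reductase of anthocyanin synthesis, spanned most of the scale within single groups: WT +P arrays read 146, 10.1 and 4.73 and WT -P arrays 661, 32.7 and 1021. Its mean differences were 3.87 in WT and 2.20 in pnp1-1, with a standard error of 2.13 for each.

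Class III peroxidases, secreted enzymes that act on cell wall phenolics, were represented by 4 genes. PRX52 read 4.66, 5.64 and 5.59 on WT +P and 664, 1018 and 685 on WT -P, a rise of 7.20. The pnp1-1 arrays read 14.7, 71.7 and 167 on +P and 1590.4, 2047 and 2362 on -P, a rise of 5.14. All pnp1-1 arrays lay above the WT arrays of the same medium. Prx37 read 10.1, 9.68 and 14.4 on WT +P and 221, 326 and 77.1 on pnp1-1 +P, and 42.5, 307 and 48.9 against 471, 1176 and 516 on -P, so that the mutant on +P overlapped with WT on -P. The other 2 genes, AT5G58390 and AT4G36430, rose by 2.1 and 2.36 in WT and by 2.07 and 1.58 in pnp1-1, and the rise was larger in WT for all 4 peroxidases.

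Berberine bridge enzyme-like genes encode FAD-linked oxidoreductases, some of which oxidise small defence compounds or sugars. Of the 4 named here, AT1G26390 rose by 5.0 in WT and 5.87 in pnp1-1, and AT1G26380 by 4.20 and 3.91. AT1G26390 read 12.6, 18.8 and 18.4 on WT +P, 422, 904 and 376 on WT -P, 14.3, 26.8 and 31.3 on pnp1-1 +P and 995, 1481 and 1645 on pnp1-1 -P. The groups of the 2 media were apart in each genotype. The 3 chitinase genes, whose products cut the chitin of fungal walls, rose by 1.67 to 4.85 in WT and by 1.76 to 2.61 in pnp1-1. ChiC, a class V chitinase, read 53, 72.6 and 89.4 on WT +P and 1870.4, 2595 and 1701 on WT -P. Its pnp1-1 arrays read 737, 810.0 and 635 on +P and 4036, 3381 and 3840.4 on -P, so that the mutant was above WT on both media and its rise was 2.37 against 4.85.

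**Figure D3:**
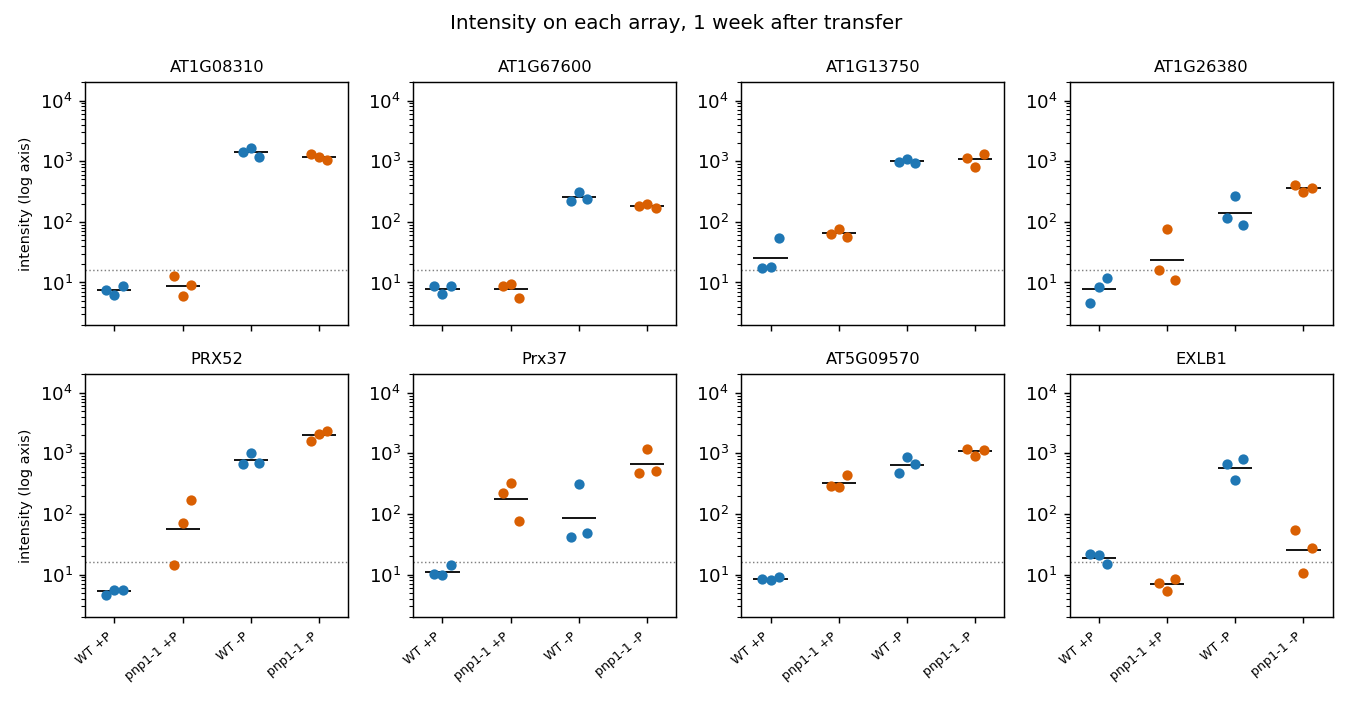
Intensity of 8 members on each 1 week array (log axis; blue WT, orange pnp1-1; bars are geometric means of 3 arrays, the dotted line marks an intensity of 16). AT1G08310 and AT1G67600 start under 16 in both genotypes, AT5G09570 is at 8.26 to 8.97 in WT and at 276 to 435 in pnp1-1 on +P, and EXLB1 is lower in pnp1-1 on both media.

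Among the other named genes of the 25 largest rises was FHL, whose product carries the light receptor phytochrome A into the nucleus. FHL read 4.07, 5.09 and 5.65 on WT +P and 164, 246 and 196 on WT -P, and 3.75, 4.22 and 7.62 against 78.3, 67.3 and 112 in pnp1-1. Both +P groups were at the floor, and every pnp1-1 -P array lay under every WT -P array. AT1G23140, the C2 domain gene, read 27.7, 23.5 and 33.8 against 1437, 1560.0 and 1099 in WT and 49.4, 103 and 149.9 against 1184, 1201 and 1188 in pnp1-1, rises of 5.59 and 3.71. AT2G04460 was the named gene of these 25 with the largest excess in the mutant, with rises of 4.92 in WT and 6.36 in pnp1-1; its WT -P arrays spread from 75.2 to 823. AT5G63130, which encodes a protein with a PB1 domain, rose by 4.23 and 4.15. AT5G17340 and AT3G43110 rose by 5.68 and 5.91 in WT and by 4.28 and 4.14 in pnp1-1, both from levels under 16.

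Genes of detoxification and small molecule conjugation made up another part of the named genes. GSTU25, a glutathione transferase of the tau class, read 5.29, 6.06 and 14.9 on WT +P and 79.7, 83.3 and 29.8 on WT -P at 1 week, and 12.9, 6.25 and 9.31 against 47.1, 65.7 and 44.4 in pnp1-1. The glucosyltransferase gene UGT73B4 read 13.8, 13.6 and 28.8 against 218, 109 and 52.5 in WT and 78.4, 121 and 22.7 against 290.4, 351 and 149.6 in pnp1-1, so that its rises were 2.61 and 2.05. CYP71B22, a cytochrome P450 gene, rose by 1.68 in WT and 2.05 in pnp1-1. AT2G41380, of a methyltransferase family, read 184, 36.9 and 54.1 on WT +P and 1019, 837 and 632 on WT -P, a rise of 3.51. Its pnp1-1 arrays read 252, 359 and 307 on +P and 793, 1185 and 1051 on -P, a rise of 1.72.

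The named genes whose rises differed most between genotypes were AT5G09570, at 6.25 in WT and 1.72 in pnp1-1, EXLB1, at 4.92 and 1.87, and ChiC, at 4.85 and 2.37. They differed in the direction of their level: AT5G09570 and ChiC were higher in the mutant on +P, whereas EXLB1 was lower in the mutant on both media. Among the 10 probe sets with a rise larger in pnp1-1 by at least 1, the named ones were AT2G04460 and AT1G70900. AT1G70900 rose by 1.63 in WT and by 2.78 in pnp1-1, where its +P level was lower.

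The gene lists (phosphate signalling and transport, phosphatases, membrane lipids, metabolic bypasses and starch, anthocyanin, jasmonate, senescence, the tissue markers and the mutated gene), chosen with earlier results of these data known, held 153 genes, of which 23 had a named probe set, 24 probe sets in all. Of these, 3 were among the 178: AT1G13750 (PAP1), APL3 and DFR. The other 21 had not met the rule, so the count of higher calls among them (0 in either genotype by limma, p adjusted by Benjamini and Hochberg over the whole array, under 0.05) is set in part by that choice, and nothing is read from it; 1.86% of the array was called higher in WT and 0.818% in pnp1-1. NMT3, a methyltransferase that makes the head group of phosphatidylcholine, was the 1 called lower, at -2.55 ± 0.64 in WT (SE, limma adjusted p = 0.0359) and at -5.13 ± 0.64 in pnp1-1 (limma adjusted p = 0.000181), where 1.57% and 0.123% of the array were called lower. PHT5;1, a vacuolar phosphate transporter, differed by 0.77 ± 0.21 in WT (limma adjusted p = 0.0531) and by 0.63 ± 0.21 in pnp1-1 (limma adjusted p = 0.360). The other 19 probe sets had a limma adjusted p of at least 0.107 in WT and of 1 (rounded) in pnp1-1. The 4 SPX and 9 PHT1 genes of the lists had no named probe set and are not described.

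The 3 h arrays were not used in choosing the probe sets, and they show whether the same genes already differed between media by then. In WT no probe set of the 178 was called by limma, and 0% of the array was; at an unadjusted p under 0.05 there were 20 of the 178 (11.2%) against 3.59% of the array. The median difference between -P and +P over the 178 was 0.14 in WT on the log2 scale, against -0.02 over all probe sets, and 110 of the 178 (61.8%) were above 0, against 36.8% of all. In pnp1-1 also none was called, against 0.00879% of the array, with 1 at an unadjusted p under 0.05 (0.562%, against 1.24% of all) and a median of 0.02. Without replicate 2 of pnp1-1 on +P that median was 0.22. Without replicate 1 of WT on +P the WT median was 0.27. In that last case limma called 1 probe set of the 178 and 17 of the whole array. Both arrays were +P arrays high in the 178, so leaving them out raised these medians. On WT -P replicate 2, 7 of the 178 were at least 4-fold above both other arrays of the group (3.93%, against 0.1275% of all). That array was not left out for a median. For the mean of both genotypes none was called, nor any of the array (0%), with 11 of the 178 (6.18%) at an unadjusted p under 0.05 against 1.54% of all.

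UGT73B4, a glucosyltransferase, and GSTU25, a glutathione transferase, both of families that conjugate foreign or toxic compounds, had the smallest p-values of the named genes for the 3 h response in WT. UGT73B4 read 55.2, 12.2 and 7.2 on WT +P and 383, 146 and 81 on WT -P, with no overlap, and 52.7, 211 and 219 against 167, 259 and 45.9 in pnp1-1. Its difference in WT was 3.29 ± 0.88 (SE, n = 3 and 3; limma adjusted p = 0.562), and in pnp1-1 it was -0.10 ± 0.88. GSTU25 read 6.8, 12.4 and 8.3 on WT +P and 159, 184 and 18.9 on WT -P, a difference of 3.21 ± 0.85 (limma adjusted p = 0.546). In pnp1-1 GSTU25 read 8, 108 and 42.2 against 40.3, 31.7 and 14.6, overlapping between media.

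Over both genotypes at 3 h the smallest p-value among the named genes was that of AT3G49160, of the pyruvate kinase family. It read 7, 8 and 8.6 on WT +P and 19.2, 47.1 and 9.7 on WT -P. It read 7.3, 6.8 and 7.5 on pnp1-1 +P and 29, 30 and 6 on pnp1-1 -P, where replicate 3 did not follow the other 2. The mean difference was 1.33 ± 0.46 (limma adjusted p = 1). PRX52 and FHL, which rose by over 4 on the log2 scale in both genotypes at 1 week, stayed at 3.9 to 6.3 on all 3 h arrays but 1, the PRX52 value of 302 given above.

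The difference of the 3 h responses between genotypes was tested as an interaction. It was called for 0 of the 178 and for 0% of the array, with 8 of the 178 (4.49%) at an unadjusted p under 0.05 against 3.01% of all. The median interaction over the 178 was -0.21 and became 0.04 without replicate 2 of pnp1-1 on +P. GSTU25 had -3.53 ± 1.21 and UGT73B4 -3.39 ± 1.24, both with a limma adjusted p of 1.

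Differences between the genotypes were already present at 3 h. On +P, limma called 24 of the 178 (13.5%) against 7.41% of the array: 21 were higher in pnp1-1 (11.8%) and 3 lower (1.69%), against 4.09% and 3.32%. On -P it called 15 (8.43%) against 4.26% of the array: 11 higher (6.18%) and 4 lower (2.25%), against 2.51% and 1.74%. All 3 pnp1-1 arrays lay above all 3 WT arrays for 29 of the 178 on +P and for 27 on -P, and below for 22 on each medium, where 9.79% and 11.3% of the array lay above and 10.7% and 9.26% below. As shares of the 178 these counts were 12.4% to 16.3%. The median difference on +P was 0.18 over the 178 and -0.01 without replicate 2 of pnp1-1, against -0.02 over the array. Without that replicate 13 were called on +P, 10 of them higher, and without WT replicate 3 it was 11. With each compared array left out in turn, 8 of the 24 calls on +P were kept, and 4 of the 15 on -P. None of these calls at 3 h was kept in every alternative. The array shares above are from the main fit, so the counts from other fits in this paragraph are not set against the array. On -P, where same-numbered arrays deviated together in all 3 pairs, a fit with the replicate number as a block called 3 in place of 15, and leaving out WT replicate 1 or any pnp1-1 replicate, or WT replicate 3, gave 5 to 9.

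AT5G09570, which encodes a small cysteine-rich protein of the CHCH domain family, had the lowest adjusted p-values of the 178 in these comparisons. At 3 h it read 17.4, 38.2 and 10.7 on WT +P and 216, 331 and 319.9 on pnp1-1 +P. On -P it read 21.9, 30.6 and 10.7 in WT and 344, 283 and 339 in pnp1-1. Mutant and WT arrays did not overlap on either medium, and each genotype had like levels on both. The differences were 3.88 ± 0.39 on +P (SE, n = 3 and 3; limma adjusted p = 2.85e-05) and 4.06 ± 0.39 on -P (limma adjusted p = 1.15e-05). Both calls were lost under the replicate block, and that on +P also when only the 2 groups compared were fitted. Leaving out any 1 array changed neither call.

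Other named genes called higher in pnp1-1 on +P at 3 h included genes of defence and detoxification families. AT1G30700, a berberine bridge enzyme-like gene, read 8.4, 7.6 and 8.3 in WT and 142, 500.5 and 38.9 in pnp1-1, a difference of 4.12 ± 0.95 (limma adjusted p = 0.0129), and it was not called without replicate 2 of pnp1-1. Prx37 read 3.5, 5.8 and 3.5 against 16, 138 and 17.7, a difference of 3.03 ± 0.82 (limma adjusted p = 0.0308), and was not called without that array or without any 1 of the WT arrays. AT2G41380, of a methyltransferase family, read 56, 30.6 and 22 against 201, 242 and 761, a difference of 3.31 ± 0.62 (limma adjusted p = 0.00362) that was called with each replicate left out in turn. ChiC, at 41, 24.2 and 21 against 57.2, 193 and 82.9, differed by 1.82 ± 0.36 and was likewise called with each replicate left out. The remaining named calls were AT2G36970 and UGT73B4, both glycosyltransferase genes, OCT4, of the organic cation transporters, AT1G57630, with the TIR domain of plant immune receptors, and AT1G65690, of the NDR1 and HIN1-like family, with differences from 1.34 to 2.99. Without replicate 2 of pnp1-1 only AT2G36970 of these 5 was called. The largest called change was that of an unnamed probe set, 254215_at, at 4.96 ± 0.79.

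The named genes called lower in pnp1-1 at 3 h were AT2G17280, of the phosphoglycerate mutase family, and AT2G38740, the haloacid dehalogenase-like gene. AT2G17280 read 254, 161 and 141 on WT +P and 41.6, 71.6 and 94 on pnp1-1 +P, a difference of -1.45 ± 0.32 (limma adjusted p = 0.0105). On -P it read 279, 191 and 192 in WT and 77.6, 98.8 and 42.3 in pnp1-1, a difference of -1.66 ± 0.32 (limma adjusted p = 0.00664). The genotypes did not overlap on either medium. Neither call held under the replicate block, in a fit of those 2 groups only or in a fit of the 3 h arrays only. The +P call was also lost without pnp1-1 replicate 1. AT2G38740 read 338, 238 and 351 against 73.1, 139.7 and 95.9 on +P, a difference of -1.62 ± 0.48 (limma adjusted p = 0.0471), and this call was lost with any 1 of the 6 arrays left out. On -P, GH3.17, which joins an amino acid to auxin, and AT1G65500 were called higher, by 2.19 ± 0.53 and 2.36 ± 0.51, and so was AT1G65690, by 2.40 ± 0.61; without pnp1-1 replicate 2 none of these 3 was called, and under the replicate block neither AT1G65500 nor AT1G65690 was. The largest called changes on -P belonged to unnamed probe sets, 256243_at at 4.11 ± 0.51 and 246293_at at -3.76 ± 0.89. The first call was lost under the replicate block, and the second in 4 of the 6 fits with an array left out.

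**Figure D4:**
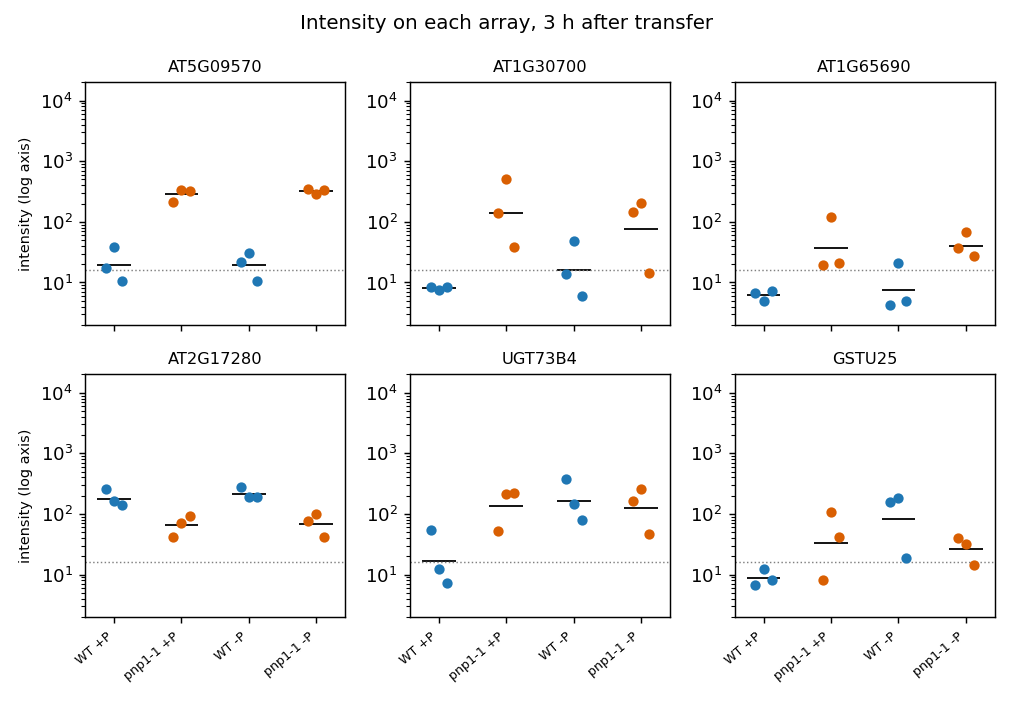
Intensity of 6 members on each 3 h array (log axis; blue WT, orange pnp1-1; bars are geometric means of 3 arrays, the dotted line marks an intensity of 16). AT5G09570 is at 10.7 to 38.2 in WT and at 216 to 344 in pnp1-1, AT2G17280 is lower in pnp1-1 on both media, and for UGT73B4 and GSTU25 every WT -P array is above every WT +P array.

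At 1 week the genotypes can be compared by the mean of their +P and -P levels, which is uncorrelated with the 2 differences used by the rule when the spread is equal in all groups. By this measure limma called 40 of the 178 (22.5%) against 10.8% of the array: 31 were higher in pnp1-1 (17.4%) and 9 lower (5.06%), against 5.14% and 5.64%. The median was 0.24, against 0.03 over all probe sets. The condition of equal spread was not met by the 49 probe sets under 16 on +P in both genotypes, for which this mean is close to 0.5 times the -P difference, and it uses the arrays that chose the members. Among those 49, 4 were called higher and 4 lower, and among the other 129, 27 (20.9%) higher and 5 (3.88%) lower. The 129 include probe sets under 16 on +P in WT only, such as AT5G09570 and Prx37. Equal spread was not checked for the 129, so their calls are not shown to be free of the choice of the members. The differences on the single media are made of the values that chose the probe sets and are given with no test. On +P pnp1-1 was at least 1 higher on the log2 scale for 58 and at least 1 lower for 14, where 4.55% and 4.02% of the array were. On -P the counts were 46 and 23, where 2.52% and 2.41% of the array were. Of the 40 calls, 32 were kept with each 1 week array left out in turn, and 20 in every alternative. Without the 3 arrays of raised lower quartile 27 probe sets of the 178 were called, a count not set against the array in that fit.

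AT5G09570 was again among the largest differences of the mean of both media. It read 8.34, 8.26 and 8.97 on WT +P and 289.8, 276 and 435 on pnp1-1 +P, and 472, 877 and 664 against 1187, 909.6 and 1147 on -P. The mutant on +P was at a level between the 2 WT groups, and the mean difference was 2.99 ± 0.28 (SE, n = 6 and 6 arrays; limma adjusted p = 2.17e-06). Prx37, with the values given above, was higher by 3.46 ± 0.58 (limma adjusted p = 0.000897) and ChiC by 2.13 ± 0.25 (limma adjusted p = 3.74e-05). AT3G13950 read 35.5, 16.9 and 14 on WT +P, 161, 272 and 163 on pnp1-1 +P, 163, 191 and 160.4 on WT -P and 554, 528 and 779 on pnp1-1 -P, a mean difference of 2.54 ± 0.51.

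GRX480, a glutaredoxin that binds TGA transcription factors of defence genes, read 44.3, 19.4 and 26.5 on WT +P and 168, 198 and 60.6 on pnp1-1 +P. On -P it read 109.8, 187 and 102 in WT and 658, 532 and 401 in pnp1-1, and the genotypes did not overlap on either medium. Its mean difference was 2.09 ± 0.40 (limma adjusted p = 0.00228). The peroxidase AT4G36430 differed by 2.26 ± 0.34, AT1G57630 by 2.27 ± 0.47, AT1G65690 by 2.14 ± 0.43 and AT2G15220, of the basic secretory protein family, by 1.67 ± 0.22. All of the 1 week calls named so far were kept with each array left out. AT1G30700 (2.36 higher), AT5G38900 of the thioredoxin superfamily (1.67 higher), AT3G09010 of the protein kinases (1.40 higher) and AT1G65500 (1.55 higher) were also called, but the first 2 lost the call with single arrays left out and the other 2 only without the 3 arrays of raised lower quartile. Of the unnamed probe sets, 266070_at differed most, by 3.86, with 227 to 392 on pnp1-1 +P against 15.0 to 36.9 on WT +P.

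Genes lower in pnp1-1 at 1 week were of mixed roles. EXLB1, an expansin-like gene of the cell wall, read 22, 20.9 and 15 on WT +P and 7.17, 5.39 and 8.42 on pnp1-1 +P, and 669, 362 and 801 against 54.8, 10.5 and 28 on -P. Its mean difference was -3.0 ± 0.48 (limma adjusted p = 0.000662), kept in every alternative run. AT1G70900 read 472, 338 and 384 against 62.2, 44.9 and 119.6 on +P and 1147, 1139.8 and 1386 against 530.5, 418 and 488 on -P, with no overlap of genotypes and a mean difference of -1.93 ± 0.32 (limma adjusted p = 0.000852). AT5G44400, a berberine bridge enzyme-like gene, differed by -1.87 ± 0.42, opposite in sign to AT1G30700 of the same family. AT5G44400 was called with each array left out, but not in a fit of the 1 week arrays only or of the compared groups only. FHL was lower, at -0.62 ± 0.16 in the 2-medium mean (limma adjusted p = 0.0156). It was not called in a fit of the 1 week arrays only, of the compared groups only, or without the 3 arrays of raised lower quartile. FHL was under 16 on +P in both genotypes, so this mean is close to 0.5 times its -P difference. Its -P values helped to choose it, so nothing is read from that p-value. AT2G17280 was lower too, at -0.82 ± 0.23 (limma adjusted p = 0.0263), a call that was lost in 6 of the 12 fits with an array left out.

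The role groups had these genotype differences at 1 week, as means of both media. For the 8 phosphate ester enzymes the median was -0.23, with 2 of 8 above 0 and 1 called lower. The 3 genes of carbon metabolism had a median of -0.24, with none called. The peroxidases had a median of 2.32, with 3 of 4 above 0 and 2 called higher. The chitinases had a median of 1.58, with 1 called higher, and the berberine bridge enzyme-like genes 1.21, with 1 called in each direction. On +P at 3 h the medians of the berberine bridge enzyme-like genes and the chitinases rested on replicate 2 of pnp1-1: they were 1.60 and 1.34 with it and 0.04 and -0.12 without it. The median of the peroxidases went from 1.84 to 1.12 and that of the phosphate ester enzymes from -0.50 to -0.66. These groups were made after the values were seen, so no difference between them was tested.

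The 3 h and 1 week genotype comparisons share no arrays, although they share 1 estimate of spread per probe set. Of the 21 called higher in pnp1-1 on +P at 3 h, 11 (52.4%) were called higher at 1 week, which is 35.5% of the 31 called there. Over the whole array the same shares were 37.4% of 930 and 29.8% of 1169. Of the 11 called higher on -P at 3 h, 7 (63.6%) were called higher at 1 week, against 44.6% of 572 over the whole array. No probe set of the 178 was called in opposite directions in any of these pairs. In all 3 comparisons 6 were higher, 2 of them named (AT5G09570 and AT1G65690), and 1 was lower, AT2G17280; over the whole array 0.849% were higher in all 3 and 0.695% lower. Across the 178 the difference on +P at 3 h and that at 1 week had a Pearson correlation of 0.643 and a Spearman correlation of 0.707, against 0.603 and 0.460 across all 22746; these are across genes, which are not independent replicates. The members were not tested against the array in these overlaps.

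**Figure D5:**
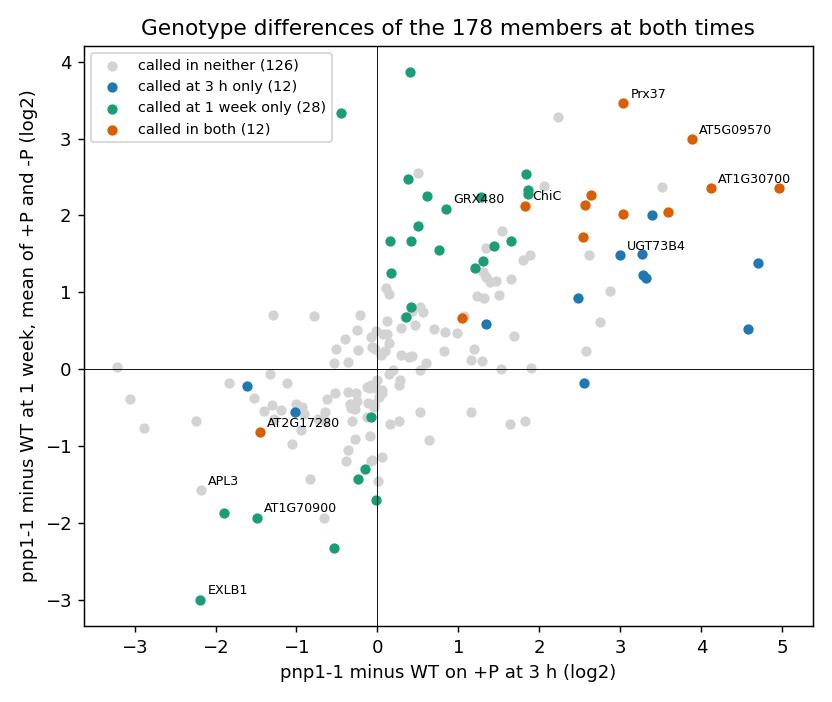
Difference between pnp1-1 and WT for each of the 178 probe sets, on +P at 3 h on the horizontal axis and at 1 week as the mean of both media on the vertical axis (log2), coloured by limma call. The 12 probe sets called in both lie in the upper right, except AT2G17280 at -1.45 and -0.82.

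In all, 57 of the 178 (32.0%) were called in at least 1 of the 3 genotype comparisons, against 16.3% of the array, and 121 in none. Among the 25 largest shared rises 2 (8%) were called, among the largest 50 there were 10 (20%), and among the other 128 there were 47 (36.7%). The rises were ranked by the smaller of the 2 differences at 1 week, and the 1 week genotype comparison uses the same arrays. A genotype difference on 1 medium can itself lower that rank, so nothing is read from the order of these shares. AT1G08310 stood for the probe sets without a call: its difference between genotypes was 0.52 ± 0.61 on +P at 3 h, 0.06 ± 0.61 on -P at 3 h and -0.00 ± 0.43 in the 1 week mean. A p-value over the threshold does not show that levels were equal, and with 3 arrays in a group the standard errors of the 178 set what could be called.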

How the data were processed

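RNA from shoots was hybridised to 24 Affymetrix arrays, 3 in each of 8 groups. The submitters' processing notes name GCRMA, affy and limma with no role for each step, and the authors deposited 1 table of background-corrected intensities on a linear scale. Which arrays were normalized together, and in what order, is not stated in the labels. Of 22810 probe sets, 64 controls were left out. The members and gene lists were chosen with earlier results of these data known. The members were selected with values under 4 set to 4 before log2; all tests used log2 of the deposited intensity with no floor, in 1 limma fit (version 3.58.1, R 4.3.3) of 8 group means with lmFit and eBayes over all 22746 probe sets, p-values adjusted by Benjamini and Hochberg. A call is an adjusted p under 0.05. The fit had 16 residual degrees of freedom, so the number of arrays limits the precision. Genes named in the text are the named members among the 25 largest shared rises, those on a gene list, the nearest to the threshold, and those with the largest called changes or, without calls, the smallest p-values; other members were chosen after their values were seen. Probe sets were named through the platform annotation and RefSeq locus tags. Same-numbered arrays deviated together in all 3 pairs for both 3 h responses (correlations of 0.230 to 0.687) and for the genotype difference on -P at 3 h (0.160 to 0.355) and at 1 week (0.546 to 0.623), and not on +P. Replicates are separate biological samples by the labels; the replicate number as a block, other floors, fits and left-out arrays were alternatives.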

Additional observations from a re-analysis of the deposited data

How the results depend on the processing

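Of 172 alternatives to the number of probe sets, the counts of calls and the 1 week medians, 155 stayed within 1.5 times the reported count or within the replicate spread and 17 moved beyond it. The 172 include comparisons with 0 calls at 3 h, where 0 again counts as unmoved. They also include counts and medians made of the values that chose the probe sets. The total is therefore no measure of how well the genotype calls at 3 h held, which are given below. Of the 3 h medians over the 178, the genotype difference on +P went from 0.18 to -0.01 and the interaction from -0.21 to 0.04 without replicate 2 of pnp1-1 on +P, an alternative chosen after seeing the data. The number of probe sets was 107 with a threshold of 2 and 154 to 196 under the other choices planned, and 167 to 188 with 1 array left out, of which 157 to 174 were among the 178. Setting values under 16 to 16 gave a median 1 week rise of 2.42 in WT and 2.09 in pnp1-1. For pnp1-1 against WT on +P at 3 h the 24 calls became 1 when only the compared groups were fitted and 14 when each time was fitted alone. With a replicate block there were 0. Same-numbered WT and pnp1-1 arrays on +P at 3 h did not deviate together (correlations of -0.101 to 0.0169). Leaving out 1 array gave 11 to 30. On -P at 3 h the 15 calls became 4, 7 and, with the replicate block, 3; leaving out 1 array gave 5 to 11. For the 3 h response in WT, leaving out 1 array gave 0 to 1 calls among the 178 and 1 to 17 over the whole array. The 40 calls at 1 week became 35 to 49 with 1 array left out, 36 to 57 under the other planned choices and 27 without the 3 arrays of raised lower quartile, an alternative chosen after seeing the data. The replicate block changed no other call count by over 1.5 times. The counts of genotype calls from these alternatives are of the 178 only and are not set against the array in the same fits. Of 485 repeats of single gene calls, 398 kept the call, 87 lost it and 0 turned sign; the cause was not tested, beyond the fewer arrays in some fits. Promoter motifs were not run. Signal under 16 limits 49 of the 178 on +P at 1 week.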

Other observations

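Some genes with large shared rises belong to none of the role groups above, and their 1 week values chose them, so they are given as values. OCT1, of the organic cation transporter family, rose by 3.84 in WT and 3.12 in pnp1-1, and SUFE2, which helps to build iron-sulfur clusters in plastids, by 3.45 and 2.33. The alpha/beta-hydrolase gene AT3G44510 rose by 4.22 and 3.17 on one of its probe sets and by 4.96 and 2.85 on the other. AT1G19200 rose by 4.99 in WT and 3.09 in pnp1-1.

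Replicate 2 of pnp1-1 on +P at 3 h was high in the following genes, which were chosen after their values were seen. THI2.1, a thionin that acts against microbes, read 7.5, 146.8 and 8.3 on the 3 arrays of that group. CCOAMT, a methyltransferase of lignin precursors, read 10.5, 155 and 4.5, and AT1G68620, of a carboxylesterase family, 7, 291.6 and 21. The chitinase gene CHI (AT2G43570) read 8, 189.6 and 9.1 there, and 9.3, 339 and 6.9 on WT -P at 3 h, where again replicate 2 stood apart.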
